A study of Homo sapiens with 6 samples.

Results

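Intermediate filaments were followed through 10 genes of the deposited count table, chosen by name because NEFM, one of them, was abundant in the libraries labelled NC and close to absent from those labelled KD. The 10 genes were NEFL, NEFM, NEFH, INA, NES, PRPH, VIM, KRT8, KRT18 and LMNA, of 61267 genes in the table. RNA came from cells labelled THP-1, an established human monocytic leukemia line, which in both groups had been made adherent with 100 ng/ml of the phorbol ester PMA for 48 h. There were 3 NC and 3 KD libraries, and the genotype labels give nothing beyond NC and KD with a number. The series title names METTL1, a methyltransferase that modifies tRNA, and acute inflammation, but no label names it as the target of KD, so NC and KD stand here for the libraries so labelled. No label says whether the 3 samples of a group were grown apart, so p-values measure only the spread between them, which may be technical.

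Intermediate filament proteins pair through a long coiled-coil rod and assemble into rope-like cables that carry mechanical load. The type made depends on the cell: keratins in epithelia, vimentin in mesenchymal cells and leukocytes, neurofilaments and alpha-internexin in neurons, and nestin in many progenitor cells. Lamins line the inside of the nuclear envelope of nearly every cell. In monocytes and macrophages vimentin is the usual cytoplasmic filament.

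Total counts ran from 37628972 to 42970216 per library. METTL1 stood at 14.8 ± 1.01 CPM in NC and 13.7 ± 0.605 in KD (mean ± SD, n = 3 each), where CPM are counts per 1000000 of the library size after TMM scaling. Its log2 difference of -0.10 missed the threshold (edgeR adjusted p = 0.216) and was -0.29 with library sizes alone (edgeR adjusted p = 0.00249). WDR4, its partner protein, fell from 7.27 ± 0.317 to 4.77 ± 0.713 CPM (log2 difference -0.61, edgeR adjusted p = 5.04e-05). With libraries scaled on 57 leukocyte-restricted genes METTL1 stood at -1.34 (edgeR adjusted p = 9.32e-15) and WDR4 at -1.84. The median of all tested genes on that scale was -1.28, so the size of the METTL1 difference depends on the scaling. CDKN2A, a gene that THP-1 cells are known to have lost, had 1484, 1521 and 1637 counts in the NC libraries and 0, 7 and 6 in the KD libraries, so that its level in NC goes against the THP-1 label of those libraries. All 12 monocyte and macrophage markers examined were detected. With libraries scaled on all genes all 12 were higher in KD, as were 36.2% of all tested genes. With libraries scaled on the 57 leukocyte-restricted genes 0 markers were higher and 6 lower, against 3.15% and 84.2% of all tested genes. The markers CD14, CSF1R, ITGAM, ITGAX, SPI1 and TYROBP are also among the 57, so they help to set that scale. The summed level of those 57 genes was 4845 to 5060 CPM in NC and 12465 to 12804 in KD, and that of 12 epithelial markers was 173 to 176 CPM in NC and 12.4 to 13.9 in KD. Of the 57, 54 rose and 0 fell, and of 9 epithelial markers tested 2 rose and 5 fell. Of all tested genes 36.2% rose and 40.3% fell. DSG2 alone gave 143.9 CPM of the epithelial sum in NC and 0.949 in KD, and OCLN 20.4 and 1.40, while the other 10 were at 0.0158 to 2.84 CPM in NC, and KRT7 and CLDN7 were the 2 that rose (not on the leukocyte genes' scale, at -0.28 and -0.07). GRHL2 had 2, 0 and 0 counts in NC and none in KD. These values move with the results below, and their part in them was not tested. In bulk samples fewer cells of a type and less RNA per cell cannot be told apart.

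The 10 genes divided into 6 that were lower and 4 that were higher in KD, with no overlap between the groups' CPM values for any of them. The 6 were NEFM, NEFL, INA, PRPH, KRT8 and KRT18, and the 4 were NEFH, NES, VIM and LMNA. All 10 lay past the call threshold used for the whole table, an edgeR adjusted p of 0.05, as did 76.5% of the 21905 genes tested (36.2% higher and 40.3% lower in KD), and the groups did not overlap for 78% of tested genes. Since this contrast served to choose the genes, their differences are given as a description with no test. A difference is the log2 of KD over NC with its standard error (SE).

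**Figure D1:**
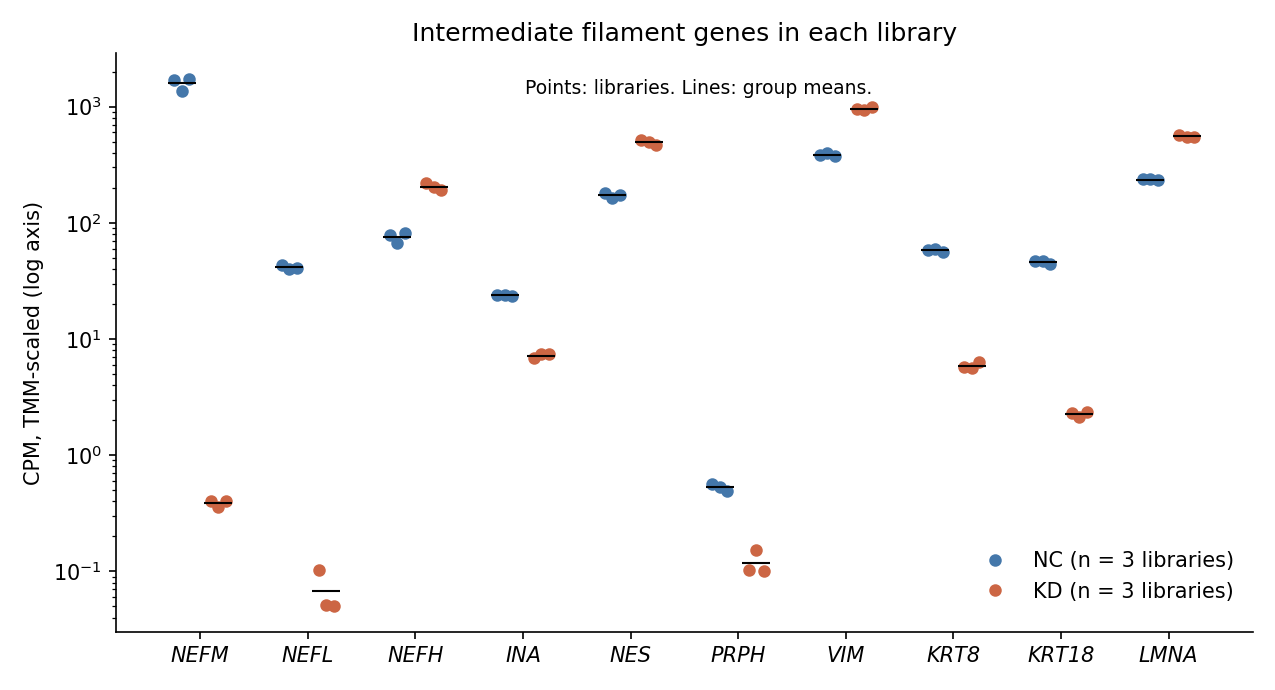
CPM (log axis) of the 10 genes in each of the 3 NC and 3 KD libraries, with points for libraries and lines for group means. NEFM lies at 1367 to 1717 CPM in NC and at 0.357 to 0.407 in KD, while NEFH, NES, VIM and LMNA sit higher in KD.

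The 3 neurofilament subunits, which form the axonal cytoskeleton of neurons, went apart. NEFM, the medium subunit (chromosome 8, 24913758 to 24919098, plus strand, GRCh38 as in the table), stood at 1702, 1367 and 1717 CPM in NC 1 to 3 and at 0.407, 0.357 and 0.405 CPM in KD 1 to 3. It was the most abundant of the 10 in NC and among the least abundant in KD, where its 3 libraries held 16, 14 and 16 counts. The ratio of NC to KD was 4106 (95% exact binomial interval of the count ratio 3078 to 5609), and the log2 difference was -11.99 (SE 0.138). The interval covers counting error only and takes counts as independent. It would be too narrow if both reads of a pair were counted separately: 67.6% to 69.4% of the counts from 1 to 30 were even numbers, against 50.2% to 51.4% of those over 1000.

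NEFL, the light subunit that forms the core of the filament, lies 31856 bases from NEFM (chromosome 8, 24950955 to 24956721, minus strand). It was at 43.5, 40.2 and 40.7 CPM in NC, with 4, 2 and 2 counts in the KD libraries. The log2 difference was -9.19 (SE 0.150), and the count ratio of NC to KD was 612 (95% interval 310.2 to 1417). Both chromosome 8 genes were thus close to 0 in every KD library. Their levels in NC were far apart: per kilobase of exon, NEFM exceeded NEFL by a factor of 41.7 ± 4.49 (SD, n = 3). Of the NEFL exon bases, 19.8% are shared with ENSG00000272157 on the other strand, which had 105, 90 and 120 counts in NC and none in KD.

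NEFH, the heavy subunit with the long phosphorylated tail (chromosome 22, 29480218 to 29491390, plus strand), showed the other direction. Its levels were 79.2, 67.5 and 81.2 CPM in NC and 218, 202 and 190.3 CPM in KD, and the log2 difference was 1.42 (SE 0.0645). The KD libraries thus held the heavy subunit with almost no light or medium subunit. Per kilobase, NEFM exceeded NEFH by a factor of 21.9 ± 0.660 in NC, whereas in KD the factor was 0.00200 ± 0.000195.

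INA encodes alpha-internexin, a further subunit of many neuronal filaments (chromosome 10, 103277138 to 103290346, plus strand). It was at 24.0, 24.0 and 23.6 CPM in NC and at 6.81, 7.40 and 7.40 CPM in KD, and the log2 difference was -1.73 (SE 0.0744). Unlike NEFM and NEFL, it kept 268 to 292 counts in each KD library. Of its exon bases, 13.9% are shared with NT5C2 on the other strand, a gene with 1993 to 2342 counts per library, and reads there cannot be assigned, since no source used here states whether counting kept the strands apart.

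NES encodes nestin, a large filament protein of progenitor cells that assembles with vimentin (chromosome 1, 156668763 to 156677407, minus strand). It was at 179.5, 164 and 175 CPM in NC and at 515, 493 and 472 CPM in KD. The log2 difference of 1.51 (SE 0.0456) was the highest of the 10. INA and NES belong to the same sequence class as the neurofilaments and lay on opposite sides of 0, so the promoter windows of both are given from the RefSeq table (GRCh38.p14), which matched 6 of the 10 genes (INA, NES, PRPH, VIM, KRT8 and LMNA, not NEFL, NEFM, NEFH or KRT18). Each runs 5′ to 3′ from 250 bases before the start to 50 after it, at chr10:103276888-103277187 on the plus strand and chr1:156677358-156677657 on the minus strand. Capitals mark matches to GGGCGG, the core of the Sp1 site, on either strand.
INA: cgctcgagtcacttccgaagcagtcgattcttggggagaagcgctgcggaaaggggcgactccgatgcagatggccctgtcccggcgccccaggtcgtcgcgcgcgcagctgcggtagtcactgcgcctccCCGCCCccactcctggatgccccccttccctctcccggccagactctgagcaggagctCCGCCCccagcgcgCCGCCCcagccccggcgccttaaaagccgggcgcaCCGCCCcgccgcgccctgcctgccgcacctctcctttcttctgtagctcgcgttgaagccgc
NES: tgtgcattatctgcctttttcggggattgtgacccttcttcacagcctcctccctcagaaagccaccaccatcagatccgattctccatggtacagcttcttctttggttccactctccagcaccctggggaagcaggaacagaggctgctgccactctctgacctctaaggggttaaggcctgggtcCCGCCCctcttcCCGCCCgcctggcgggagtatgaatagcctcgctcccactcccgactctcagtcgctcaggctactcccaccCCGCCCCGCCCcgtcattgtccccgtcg
Each window held 4 such matches, a pair of which overlap in NES, and 45.0% of the 35116 promoters in the table hold at least 1. The G and C content was 71.3% for INA and 60.3% for NES, against a median of 58.7%. Neither window held the AP-1 letters TGANTCA, nor did the other 4 matched windows, and 7.71% of all promoters hold them on either strand. The absence of a match says only that these letters are not in the window. Each gene has only the window of its listed start here. Other starts were not searched, and the start used in these cells was not determined. AP-1 is a factor that phorbol esters are known to activate, hence the search. The TATA box letters TATAAA, which 11.5% of promoters hold, were found in the PRPH window alone of the 6.

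VIM encodes vimentin (chromosome 10, 17228241 to 17237593, plus strand) and was the most abundant of the 10 genes in KD. It was at 385, 395 and 379 CPM in NC and at 958, 937 and 987 CPM in KD, a log2 difference of 1.31 (SE 0.0425). Its levels within a group were close together, with coefficients of variation of 2.04% in NC and 2.63% in KD. The promoter window of this gene (chr10:17227991-17228290, plus strand) is shown because VIM is the main filament gene of the KD libraries and differs in make-up from the windows of INA and NES.
VIM: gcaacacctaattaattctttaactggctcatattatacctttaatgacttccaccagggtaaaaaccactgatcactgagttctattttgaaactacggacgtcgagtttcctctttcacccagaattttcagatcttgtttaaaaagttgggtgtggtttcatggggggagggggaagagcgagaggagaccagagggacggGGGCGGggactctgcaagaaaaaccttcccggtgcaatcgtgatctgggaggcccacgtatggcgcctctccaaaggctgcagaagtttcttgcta
It held 1 match to GGGCGG, in capitals, and its G and C content was 48.0%. Of the VIM exon bases, 12.7% are shared with VIM-AS1 and 12.0% with ENSG00000234961, both on the other strand. VIM-AS1 had 3805 to 4047 counts in NC and 9109 to 9624 in KD, and ENSG00000234961 had 8938 to 9480 and 20564 to 21891, so both rows moved in the direction of VIM. Reads in the shared bases cannot be assigned if counting did not keep the strands apart, so part of these counts may belong to VIM.

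PRPH encodes peripherin, a filament of peripheral and enteric neurons (chromosome 12, 49295147 to 49298686, plus strand). It was near the limit of detection, with 24, 22 and 22 counts in NC and 4, 6 and 4 in KD. The log2 difference was -2.13 (SE 0.461), and the count ratio of NC to KD was 4.47 (95% interval 2.49 to 8.60). TROAP-AS1, on the other strand, shares 71.5% of the PRPH exon bases and had 33, 30 and 29 counts in NC and 6, 3 and 4 in KD. Reads in the shared bases cannot be assigned if counting did not keep the strands apart, so part of these counts may belong to TROAP-AS1.

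KRT8 and KRT18 are the keratins of simple epithelia, a type II and a type I chain that need each other to form a filament, and they lie side by side on chromosome 12 (52897187 to 52949954, minus strand, and 52948871 to 52952906, plus strand). KRT8 was at 57.9, 59.6 and 56.0 CPM in NC and at 5.77, 5.61 and 6.28 CPM in KD, a log2 difference of -3.29 (SE 0.0649). KRT18 was at 47.2, 46.9 and 44.5 CPM in NC and at 2.29, 2.14 and 2.33 CPM in KD, a log2 difference of -4.36 (SE 0.0793). Both were clearly present in every NC library and low in every KD library. The pair was not lower by the same factor: KRT8 per kilobase was 0.558 ± 0.00984 of KRT18 in NC and 1.17 ± 0.0388 of it in KD. Which of the 2 was higher in NC depends on the length used: with GENCODE 29 transcript lengths the ratio was 1.16 ± 0.0204 in NC and 2.42 ± 0.0805 in KD.

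The keratin values carry limits of counting. The annotated exons of the 2 genes share 525 bases on opposite strands. The table also lists 51 rows named as KRT8 pseudogenes, which together held 2778 counts in NC and 3574 in KD, or 37.5% and 514% of the KRT8 counts. For KRT18, 67 such rows held 175 counts in NC and 134 in KD, or 2.95% and 50.4%. The most abundant was KRT8P12 with 627 to 649 counts per NC library and 767 to 957 per KD library. In unscaled counts the KRT8 pseudogene rows together thus were not lower in KD as KRT8 was. Lower counts in KD were found for KRT8P33 (172 in NC and 100 in KD) and for the KRT18 rows together. Any exchange of reads with pseudogene rows would weigh most on the small KD counts of KRT8 and KRT18.

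LMNA encodes the A-type lamins A and C (chromosome 1, 156082573 to 156140081, plus strand). It was at 237, 236 and 233 CPM in NC and at 575, 552 and 548 CPM in KD, a log2 difference of 1.25 (SE 0.0410). The B-type lamins, which anchor to the nuclear membrane through a farnesyl group, fell: LMNB1 from 141 ± 2.84 to 62.8 ± 3.14 CPM (log2 difference -1.17, SE 0.0435, edgeR adjusted p = 6.12e-18) and LMNB2 from 248 ± 6.88 to 157 ± 5.59 CPM (-0.65, SE 0.0415, edgeR adjusted p = 2.81e-13). Per kilobase, LMNA was 0.744 ± 0.0212 of LMNB1 in NC and 3.97 ± 0.113 of it in KD (SD, n = 3). The ratio of A-type to B-type lamin RNA did not overlap between the groups, and a ratio within a library does not depend on the scaling between libraries. It does depend on the lengths used, and was 1.52, 1.54 and 1.46 in the NC libraries and 7.87, 7.93 and 8.29 in the KD libraries with GENCODE 29 transcript lengths.

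The order of the 10 genes by level was taken per kilobase of exon, since counts grow with length. In NC it ran from NEFM (439 ± 54.5 CPM per kilobase) over VIM (74.7 ± 1.53), NES (31.0 ± 1.41), LMNA (28.9 ± 0.295), NEFH (20.0 ± 1.96), KRT18 (15.1 ± 0.479), NEFL (10.5 ± 0.462), KRT8 (8.40 ± 0.258) and INA (7.33 ± 0.0728) to PRPH (0.203 ± 0.0158). In KD it ran from VIM (186 ± 4.87) over NES (88.6 ± 3.92), LMNA (68.6 ± 1.77), NEFH (53.6 ± 3.72), INA (2.22 ± 0.105), KRT8 (0.856 ± 0.0510), KRT18 (0.734 ± 0.0320), NEFM (0.107 ± 0.00775) and PRPH (0.0453 ± 0.0114) to NEFL (0.0172 ± 0.00744). No neighbours in either order overlapped across the 3 libraries of a group, though the last 3 in KD rest on 2 to 16 counts per library. The exon length in the table joins all annotated exons of a gene and understates genes with many transcript forms. With the length of the transcript that has the longest coding sequence in GENCODE 29, an alternative chosen after the data were seen, LMNA passed NES in both groups, KRT8 took rank 4 in NC at 34.3 ± 1.05 CPM per kilobase, and NES and KRT18 overlapped there.

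The make-up of the filament RNA thus differed between the groups. NEFM alone made up 70.2%, 65.9% and 70.8% of the summed per-kilobase level of the 10 genes in NC 1 to 3. In the KD libraries VIM, NES and LMNA together made up 85.0%, 85.5% and 86.3%, against 20.3%, 23.6% and 20.0% in NC. NEFM served to choose the genes and is part of each sum, so its low KD level alone raises the other shares there. With TMM scaling, the summed level of VIM, NES and LMNA itself was 135 ± 1.28 CPM per kilobase in NC and 343 ± 5.54 in KD. The 2 keratins accounted for 3.39% to 4.20% in NC and 0.384% to 0.421% in KD. With GENCODE 29 transcript lengths NEFM made up 50.4%, 45.0% and 51.1% in NC, VIM, NES and LMNA together 36.8% to 41.7% in NC and 92.4% to 93.1% in KD, and the keratins 7.39% to 8.65% in NC and 0.571% to 0.619% in KD. NEFM was thus the largest share in NC under both lengths, and the size of that share depended on the length. As a share of all counts of a library, NEFM reached 0.149% to 0.181% in NC.

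**Figure D2:**
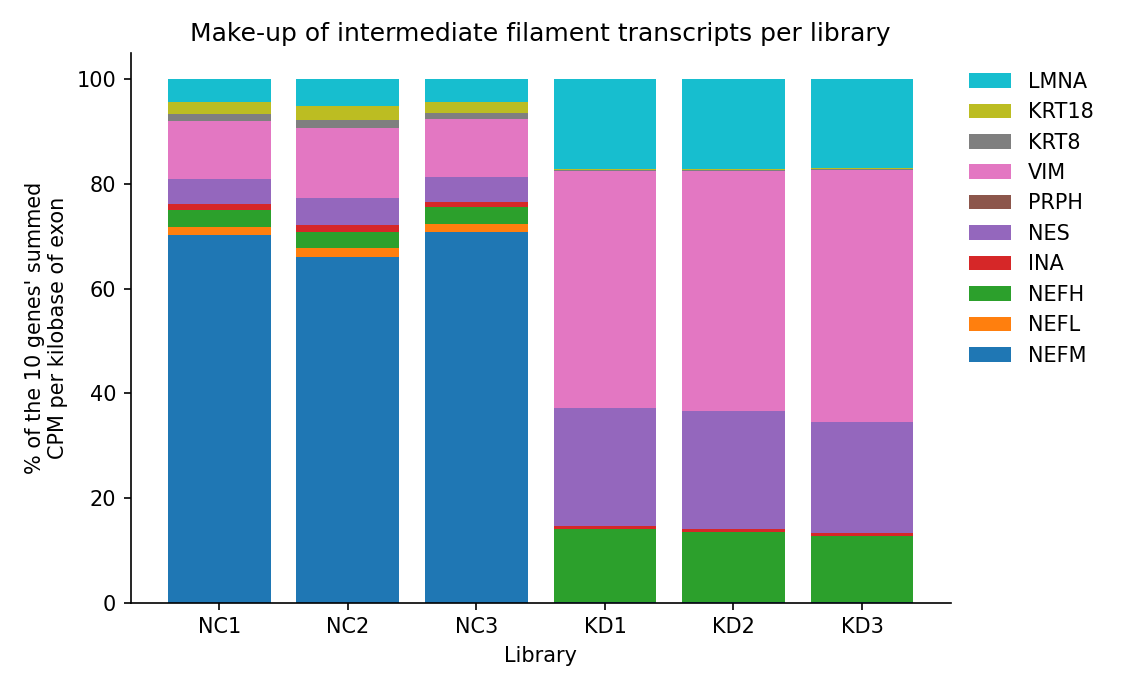
Share (%) of each of the 10 genes in their summed CPM per kilobase of exon, in stacked bars for the 3 NC and 3 KD libraries. NEFM fills 65.9% to 70.8% of each NC bar, and VIM, NES, LMNA and NEFH fill nearly all of each KD bar.

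The differences depend on how libraries are scaled to each other. The median log2 difference of all tested genes was -0.05 with TMM over all genes, -0.23 with library sizes alone and -1.28 with TMM over the 57 leukocyte-restricted genes, called the leukocyte scale here. Of all calls, 47.3% were higher in KD with TMM, 37.5% with library sizes alone and 3.61% on the leukocyte scale. Library sizes alone put 28.4% of all tested genes higher and 47.3% lower, whereas the leukocyte scale put 3.15% higher and 84.2% lower. NEFM (-13.22, SE 0.138), NEFL (-10.40, SE 0.132), INA (-2.96, SE 0.0728), PRPH (-3.35, SE 0.449), KRT8 (-4.53, SE 0.0625) and KRT18 (-5.59, SE 0.0740) were lower in KD on the leukocyte scale as well, each below the median gene. The 4 genes that were higher in KD came close to 0 on it. VIM stood at 0.08 (SE 0.0451) and LMNA at 0.01 (SE 0.0433), neither past the call threshold, and NEFH at 0.18 (SE 0.0641) and NES at 0.28 (SE 0.0474). On the scale of all genes, the differences of these 4 (1.25 to 1.51) lay within the range of the 57 leukocyte-restricted genes (0.14 to 1.78, median 1.18).

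**Figure D3:**
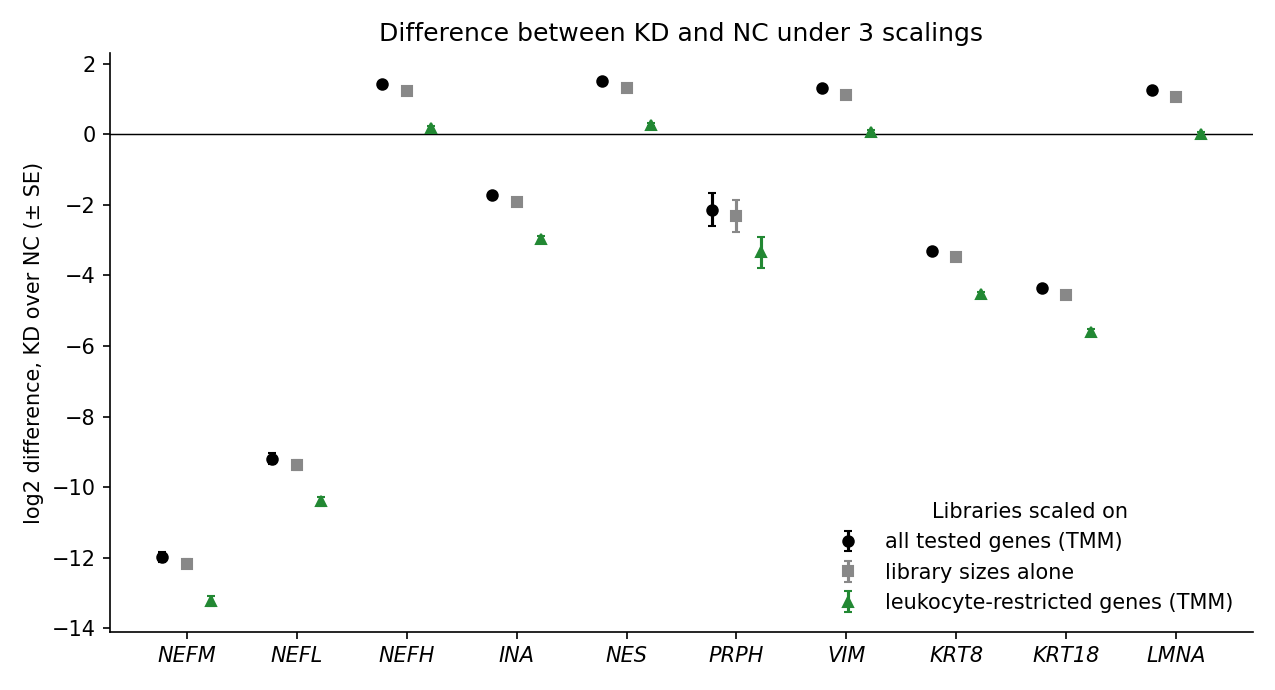
Log2 difference of KD over NC (± SE) for each of the 10 genes with libraries scaled on all tested genes, by library size alone and on leukocyte-restricted genes. VIM and LMNA lie at 0.08 and 0.01 on the leukocyte scale, while NEFM, NEFL, KRT8 and KRT18 stay at -4.53 or below.

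The NC libraries were not alike in NEFM. NC 2, at 1367 CPM, lay below NC 1 and NC 3, and the coefficient of variation of 12.4% was above that of 98.5% of the 9620 tested genes with at least 10 CPM in NC (median 4.03%). NEFH varied in the same way, with 67.5 CPM in NC 2 and a coefficient of 9.78%, above 95.2% of those genes. NEFL and NES were also lowest in NC 2, with coefficients of 4.39% and 4.54%. INA (0.992%), LMNA (1.02%), VIM (2.04%), KRT8 (3.07%) and KRT18 (3.18%) were below the median in spread. The differences in NEFM between NC libraries are small beside the difference from KD.

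**Figure D4:**
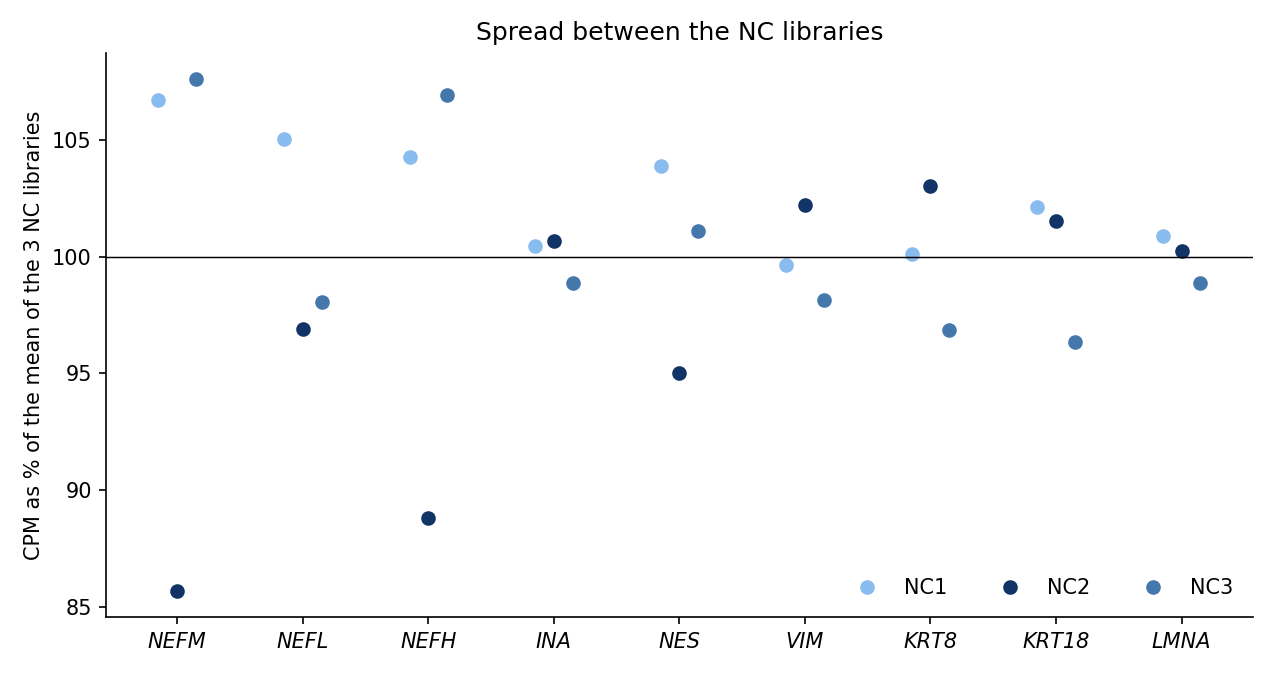
CPM of each NC library as a percentage of the mean of the 3 NC libraries, for the 9 genes other than PRPH. NC 2 is lowest for NEFM, NEFL, NEFH and NES, and not for INA, VIM, KRT8, KRT18 or LMNA.

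The genes whose profile over the 6 libraries was most like that of NEFM, by the smallest root mean square difference of centred log2(CPM + 0.5) values among 10680 protein-coding genes, were IRS4 (1.43), BEX2 (1.61) and LIN28B (1.68). IRS4, an insulin receptor substrate, had 164 ± 2.42 CPM in NC and 0.169 ± 0.0770 in KD, and LIN28B, an RNA-binding protein, had 86.4 ± 3.41 CPM in NC and no count in KD. None came near the NEFM level in NC. NEFM and these genes were at 0 to 0.390 CPM in KD, so the added 0.5 bears on their likeness too. The log2 difference of LIN28B, -14.79, rests on no count in KD, so its size cannot be ranked against the -11.99 of NEFM. For VIM the nearest were PIK3R5 (0.0177), DOCK5 (0.0199) and IL1RN (0.0199). PIK3R5, a regulatory subunit of a leukocyte phosphoinositide kinase, had a mean of 34.9 ± 0.645 CPM in NC and of 88.9 ± 1.00 in KD. For KRT18 they were KCNT2 (0.0367), PRKG1 (0.0596) and RPS6KA6 (0.0760), all at 7.88 to 8.26 CPM in NC and at or near 0 in KD, so that the added 0.5 sets this likeness.

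Of 62 other intermediate filament genes, 7 rose and 6 fell among 16 tested, with a median log2 difference of 0.08 against -0.05 for all tested genes (edgeR quasi-likelihood test, Benjamini-Hochberg over all genes). Beside the counts for this list and the 3 that follow stand 36.2% of all tested genes higher and 40.3% lower. These lists were written with earlier results of these data known. A count was found in no KD library for 34 of the 62 and in no library at all for 19, all 19 of them keratin genes. The most abundant were LMNB2 and LMNB1, given above, SYNM and IFFO2. SYNM, encoding synemin, a partner of vimentin and desmin, rose from 39.7 ± 2.03 to 90.7 ± 5.39 CPM (log2 difference 1.19, edgeR adjusted p = 8.11e-17). IFFO2 rose from 23.8 ± 0.609 to 27.0 ± 0.133 CPM (0.18, edgeR adjusted p = 0.00594) but not with library sizes alone (edgeR adjusted p = 0.943). On the leukocyte scale none of the 16 was higher and 13 were lower, close to the 84.2% of all tested genes that were lower, with SYNM at -0.05.

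The filament linkers, which tie intermediate filaments to junctions, actin and microtubules, had 5 higher and 5 lower of 12 tested (median 0.03). The plakins PLEC and MACF1 rose, PLEC from 489 ± 6.20 to 1058 ± 23.4 CPM (log2 difference 1.11, edgeR adjusted p = 7.66e-18) and MACF1 from 388 ± 9.22 to 887 ± 40.3 CPM (1.19, edgeR adjusted p = 5.98e-18). DST, encoding dystonin, rose from 176 ± 6.51 to 284 ± 14.0 CPM (0.68, edgeR adjusted p = 3.85e-13). DSP, encoding desmoplakin, which fastens keratins to desmosomes, fell from 389 ± 24.1 to 3.42 ± 0.319 CPM (-6.83, edgeR adjusted p = 8.58e-29). On the leukocyte scale 0 of the 12 were higher and 10 were lower, again close to the 84.2% of all tested genes, with PLEC at -0.12, MACF1 at -0.04 and DST at -0.55.

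The partners and processing enzymes of lamins had 8 higher and 9 lower of 22 tested (median -0.05), or 5 higher and 11 lower with library sizes alone. ZMPSTE24, the protease that matures prelamin A, rose from 387 ± 6.14 to 1011 ± 18.6 CPM (log2 difference 1.39, edgeR adjusted p = 1.05e-19). It was the only gene of the list that was higher on the leukocyte scale (0.15, edgeR adjusted p = 0.00333). On that scale 20 of the 22 were lower, as were 84.2% of all tested genes. SUN2, which links the lamina to the cytoskeleton, rose from 81.4 ± 1.09 to 140.0 ± 5.73 CPM (0.78, edgeR adjusted p = 8.77e-15), with -0.45 on the leukocyte scale. TMPO, encoding the LAP2 proteins, fell from 288 ± 5.32 to 231 ± 2.72 CPM (-0.31, edgeR adjusted p = 9.69e-08). ANKLE2 rose from 120 ± 2.09 to 147 ± 0.989 CPM (0.30, edgeR adjusted p = 2.13e-07), with -0.94 on the leukocyte scale.

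Genes of the neuronal cytoskeleton had 8 higher and 16 lower of 26 tested, with a median log2 difference of -1.41. Scaling by library size alone gave 4 higher and 17 lower, against 28.4% and 47.3% of all tested genes. The leukocyte scale gave 1 and 24, against 3.15% and 84.2% of all tested genes. STMN1, encoding the microtubule regulator stathmin, fell from 494 ± 25.4 to 163 ± 3.84 CPM (-1.60, edgeR adjusted p = 2.37e-20). The spectrin chain SPTAN1 rose from 252 ± 2.16 to 386 ± 10.8 CPM (0.61, edgeR adjusted p = 5.84e-13), with -0.62 on the leukocyte scale. SPTBN1 rose from 265 ± 5.92 to 301 ± 12.4 CPM (0.18, edgeR adjusted p = 3.67e-04) but not with library sizes alone (edgeR adjusted p = 0.909), with -1.05 on the leukocyte scale. MAP1B, a microtubule-associated protein, was at 204 ± 15.6 and 217 ± 7.18 CPM and did not pass (0.09, edgeR adjusted p = 0.0779). With library sizes alone it was lower in KD (-0.09, edgeR adjusted p = 0.0474), and on the leukocyte scale it was at -1.14. The summed level of 12 neuronal markers was 83.0 to 85.2 CPM in NC and 42.0 to 42.8 in KD, with 3 higher and 6 lower of 9 tested. Their most abundant members in NC were UCHL1 (34.1 CPM in NC, 0.237 in KD) and SYP (27.2 and 33.7), followed by SYT1 (7.53 and 0.356) and GAP43 (6.90 and 0.0846). The 3 that were higher in KD were SYP, SNAP25 (1.25 and 4.80 CPM) and ELAVL4 (0.278 and 1.52). SNAP25 and ELAVL4 were higher on the leukocyte scale as well, at 0.70 and 1.20, and SYP was not, at -0.93. DCX had no count in any library, and STMN2 had 8 counts in NC 2 alone. The endothelial list summed to 120 to 126 CPM in NC and 353 to 359 in KD (6 of 6 tested genes higher, 3 on the leukocyte scale), of which PECAM1, a gene that leukocytes also express, gave 118 and 344 CPM. The fibroblast list summed to 59.1 to 61.8 CPM in NC and 135 to 138 in KD, with 3 higher and 3 lower of 7 tested. PDGFRA alone gave 21.7 CPM of that sum in NC and 101 in KD, and LUM had 4, 0 and 2 counts in NC and none in KD.

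**Figure D5:**
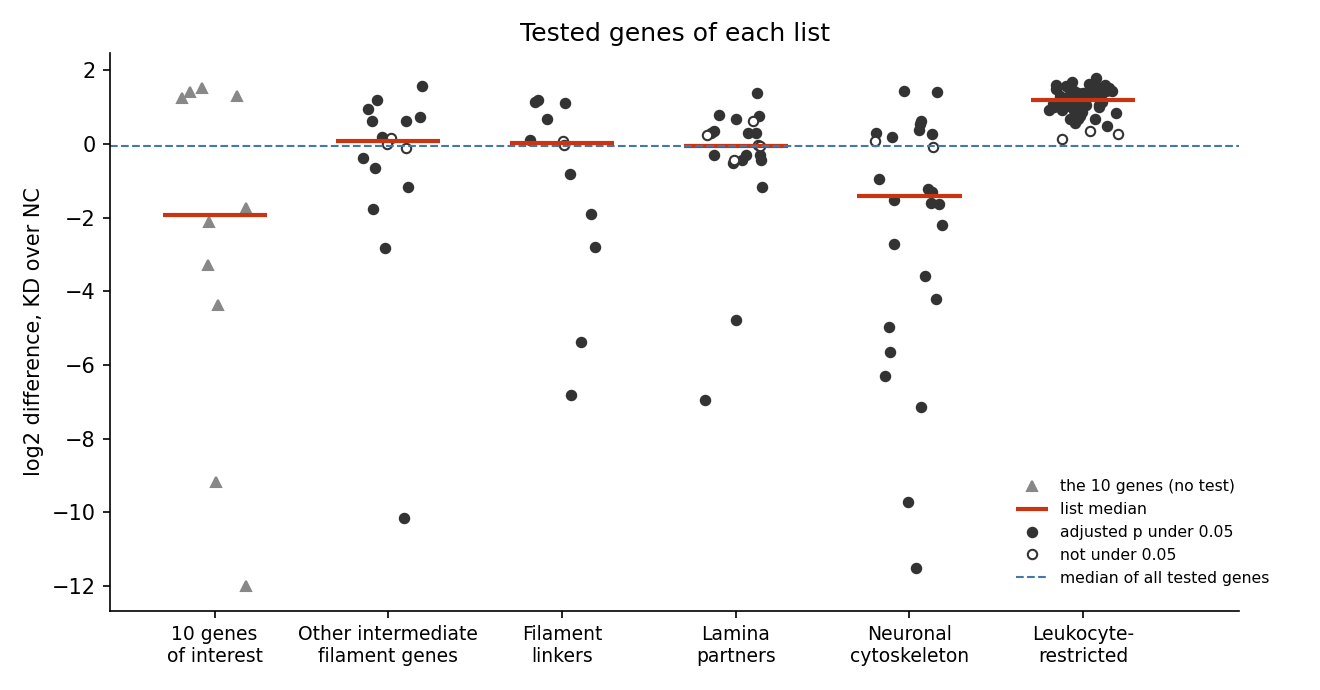
Log2 difference of KD over NC for each tested gene of the lists, with the list median as a bar and the median of all tested genes (-0.05) as a dashed line. Filled circles have an edgeR adjusted p under 0.05, open circles do not, and triangles are the 10 genes, which carry no test; leukocyte-restricted genes lie between 0.14 and 1.78.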

How the data were processed

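RNA-seq of 3 NC and 3 KD samples of PMA-treated THP-1 cells was used. The submitters' processing notes list fastp 0.23.0, a read trimmer, and GRCh38. No source used here gives the aligner, counting program, annotation release or use of strand. The deposited table holds raw counts per gene that the authors did not normalize, with exon positions and exon length. Promoter sequences came from RefSeq (GRCh38.p14).

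The whole table was fitted with edgeR 4.0.16 in R 4.3.3 (filterByExpr, TMM, robust quasi-likelihood test, Benjamini-Hochberg adjusted p of 0.05, two-sided), which left 21905 genes, all 10 filament genes among them. Each SE was taken as the size of the log2 difference over the root of edgeR's F value. On simulated counts for KD against NC over 21495 genes, these steps called 92% of 100 genes changed 1.5-fold, 98% of 100 changed 2-fold and 7 of 21295 unchanged genes. The simulation changed only genes with ample counts, as many up as down, and gave every gene the same spread. In the data 76.5% of tested genes were called, a setting the simulation did not cover, so its rates need not hold there. Libraries of a group were not duplicates (chi-square per degree of freedom 3.21 to 6.36). Alternatives used DESeq2 1.42.0, limma 3.58.1, other scalings, filters and thresholds, and left out each library.

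The 10 genes and all lists were chosen with earlier results of these data known. Other genes were named by rule: the 4 of each list with the highest mean CPM, and the 3 most similar in profile to NEFM, KRT18 and VIM. EMD, SYNE1, SYNE2, KRT222 and the single cell type markers named in the text were chosen after their values were seen. Python 3.11.15 with pandas 2.3.3 and matplotlib 3.10.9 made tables and plots.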

Additional observations from a re-analysis of the deposited data

How the results depend on the processing

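Of 157 alternative values for the 10 genes, 155 kept their direction and their side of an adjusted p of 0.05, and the other 2 were VIM and LMNA on the leukocyte scale, given above. The contrast served to choose these genes, so their calls here are a description with no test. Size was not asked for: NEFH (1.42 to 0.18) and NES (1.51 to 0.28) count as kept on the leukocyte scale. No value changed sign. PRPH was not tested with a mean of at least 1 CPM, and NEFL and PRPH were not without genes averaging under 10 counts in KD, an alternative chosen after the data were seen that called 14813 genes. Of 108 alternative counts of calls, 105 were within 1.5 times the main one. These counts pool both directions, and the directions did not hold on the leukocyte scale. There 691 of all genes were called higher and 18452 lower, against 7934 and 8824 in the main fit. Of other filament genes 0 were higher there, against 7 in the main fit. Against a fold of 1.5 the calls numbered 9655 in place of 16758 for all genes, 8 in place of 13 for other filament genes and 6 in place of 17 for lamina partners, since that test asks for a larger change. Leaving out a library gave 16288 to 16661 calls for all genes. The labels give both groups replicate numbers 1 to 3, but same-numbered samples did not deviate together (correlations 0.027, 0.0205 and -0.054). These values show no pairing, but with 3 libraries per group they cannot exclude that same-numbered samples were handled together. With the replicate block 16428 genes were called, with 10 of the 10 genes, 13 other filament genes, 10 linkers, 17 lamina partners and 24 neuronal cytoskeleton genes, and not every sample correlated best with its own number. Depth limits NEFL, NEFM and PRPH in KD, at 2 to 16 counts per library.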

Other observations

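EMD, encoding emerin, a protein of the inner nuclear membrane that binds lamins, was chosen from the lamina list after its values were seen, as were SYNE1 and SYNE2. It had 554, 544 and 574 counts in the NC libraries and 0, 8 and 4 in the KD libraries (log2 difference -6.96, SE 0.237, edgeR adjusted p = 1.37e-18). SYNE2, encoding nesprin-2, which ties the nucleus to the cytoskeleton, fell from 56.2 ± 2.23 to 2.06 ± 0.181 CPM (-4.77, SE 0.0794, edgeR adjusted p = 1.25e-24), while its relative SYNE1 rose from 26.1 to 44.2 CPM (0.76, edgeR adjusted p = 1.66e-12). SYNE1 did not keep that direction on the leukocyte scale (-0.48). KRT222, a keratin-like gene also chosen after its values were seen, had 122, 130 and 194 counts in NC and none in KD.

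The size of the NEFM dip in NC 2 was not matched by other genes that were far lower in KD. Among 101 tested genes with at least 10 CPM in NC and at least 64-fold lower in KD, a set chosen after the data were seen, the level in NC 2 divided by the mean of NC 1 and NC 3 had a median of 0.998. NEFM stood at 0.799, and 0 of the other genes had a smaller ratio. The lowest NC library was NC 2 for 41 of the 101, NC 1 for 34 and NC 3 for 26. A row annotated on the other strand of NEFM, ENSG00000272163, shares 26.4% of its exon bases. It had 1583, 1549 and 1606 counts in NC 1 to 3 and none in KD, without the dip in NC 2 that NEFM showed.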
